A study of Homo sapiens with 7 samples.

Results

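GATA6 binding was mapped in windows around KLF4 and KLF5, as peaks of a single deposited ChIP-seq list from LS174T cells. The peaks were chosen by the position of their summit, the base of highest coverage, in hg19. A window of 1.2 Mb on chromosome 9, from 109.9 to 111.1 Mb, holds KLF4 on the minus strand, and a window of equal width on chromosome 13, from 73.2 to 74.4 Mb, holds KLF5 on the plus strand. The KLF4 window held 17 peaks and the KLF5 window held 28, or 45 of the 7568 peaks in the list. KLF4 peaks and KLF5 peaks mean the peaks of these windows, with no link to the genes shown. The windows were proposed with the list in view, so peak numbers, positions and heights are given as a description, with ranks among other windows and with no test.

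KLF4 and KLF5 are zinc-finger transcription factors of the Krüppel-like family, whose members bind GC-rich and CACCC-type sequence through fingers at their C-terminal end. In the intestinal epithelium KLF5 is known from the dividing cells of the crypts, and KLF4 from non-dividing, differentiated cells, goblet cells among them. GATA6 is a zinc-finger factor of endoderm-derived tissues that recognises the core GATA and often occupies enhancers far from the genes they act on. Such enhancers can lie in wide stretches without coding genes that surround genes of developmental regulators.

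LS174T is an established human colorectal carcinoma line. It was grown in serum-containing medium and cross-linked with formaldehyde, with no treatment, genotype or time that differed between libraries. There were 7 libraries in 5 groups, with 3 GATA6 precipitations, numbered but not said to come from separate cultures, 1 input without antibody, and 1 library each for H3K27ac, H3K4me3 and H3K4me1. The peak list gives a single value per peak and does not say which of the GATA6 libraries entered it, so replicate error cannot be given for any value, and sequencing depth is unknown. The input and histone libraries were not analysed here. A single cell line of a single tumour limits the data as a model of intestinal epithelium.

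The sequences just before the gene starts are shown because no GATA6 peak of the list lay on them, whereas peaks lay on both sides of the KLF5 start. They are from RefSeq on GRCh38.p14, 250 bases each, read 5′ to 3′ on the strand of the gene. RefSeq gives KLF4 a single start, and KLF5 a pair of starts 4.03 kb apart. The capitals mark CACCC or GGGCGG on either strand, the sequence type that KLF and SP factors themselves bind. The KLF4 stretch is chr9:107489770-107490019 on the minus strand. The KLF5 stretches are chr13:73054726-73054975 and chr13:73058755-73059004 on the plus strand.

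KLF4: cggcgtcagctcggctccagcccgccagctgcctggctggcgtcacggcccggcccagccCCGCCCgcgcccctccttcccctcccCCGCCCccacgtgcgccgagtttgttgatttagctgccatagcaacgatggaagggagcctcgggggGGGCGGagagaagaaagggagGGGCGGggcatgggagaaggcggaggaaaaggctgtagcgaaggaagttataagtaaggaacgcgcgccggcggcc

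KLF5, first start: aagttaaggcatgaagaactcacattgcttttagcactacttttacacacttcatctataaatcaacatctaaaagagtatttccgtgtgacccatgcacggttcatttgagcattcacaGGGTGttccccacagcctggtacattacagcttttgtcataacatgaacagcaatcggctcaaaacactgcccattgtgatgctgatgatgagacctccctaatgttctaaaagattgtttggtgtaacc

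KLF5, later start: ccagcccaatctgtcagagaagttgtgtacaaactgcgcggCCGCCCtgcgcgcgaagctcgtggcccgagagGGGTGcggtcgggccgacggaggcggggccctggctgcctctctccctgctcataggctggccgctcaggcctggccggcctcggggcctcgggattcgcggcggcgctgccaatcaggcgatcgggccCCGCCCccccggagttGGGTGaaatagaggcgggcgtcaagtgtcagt

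The KLF4 stretch and the stretch before the later KLF5 start were GC-rich, at 69.2% and 70.8% G or C, and each held 4 matches to CACCC or GGGCGG. The stretch before the first KLF5 start was at 40.8% G or C and held 1 match. For a GATA motif, AGATAA or AGATAG and TGATAA or TGATAG were searched on both strands from 250 bases before to 50 bases after each start. KLF4 and the later KLF5 start had no match. The first KLF5 start had 1, beginning 32 bases into the transcript, in ttttaaccttgcCTATCAtgtttcgagtca (chr13:73054995-73055024, plus strand, with the match in capitals). Of the 35116 RefSeq promoters of that length, 25% held such a GATA match and 73.9% a CACCC or GGGCGG match. TGANTCA (AP-1), TGTTTAC (forkhead) and CTTTGAT or CTTTGAA (TCF/LEF) were not found in any of the 3 promoters, against shares of 7.71%, 3.42% and 6.86% of all promoters. A match is a string of letters and not a site. The sequence under the peaks themselves was not used here.

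Both genes lay in the densest GATA6 window of their chromosome. With windows of 1.2 Mb laid end to end from each gene's own window, the KLF4 window ranked 1 of 116 on chromosome 9, and the next held 12 peaks. The other 115 windows had a median of 2 peaks and a mean of 2.48, so the KLF4 window held 6.86 times the mean. Of these windows 41 held no peak, and without them the ratio was 4.41. All windows from 39.1 to 70.3 Mb were empty, inside the chromosome's longest interval between summits, 32750 kb. The median of 2 and the ratio of 6.86 include the empty windows. On chromosome 9, 0.862% of windows, the KLF4 window alone, held 17 peaks or more. Over chromosomes 1 to 22 this was 10 of 2280 windows, or 0.439%.

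The KLF5 window stood further from its chromosome. Its 28 peaks compared with a maximum of 12, a median of 1 and a mean of 2.22 in the other 76 windows of chromosome 13, a ratio of 12.6, or 8.62 without the 24 windows that held none. It ranked 1 of 77 there (1.3%) and 1 of the 2280 windows of chromosomes 1 to 22 (0.0439%). It carried 13.9% of the 202 peaks of chromosome 13 in 1.28% of the span between that chromosome's first and last summit. The KLF4 window carried 5.54% of 307 peaks in 0.859% of the span. The adjoining windows held 4 and 6 peaks beside KLF4, and 1 and 0 beside KLF5. The windows beside KLF5 were at or below the median of chromosome 13, while those beside KLF4 were above the median of chromosome 9.

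**Figure D1:**
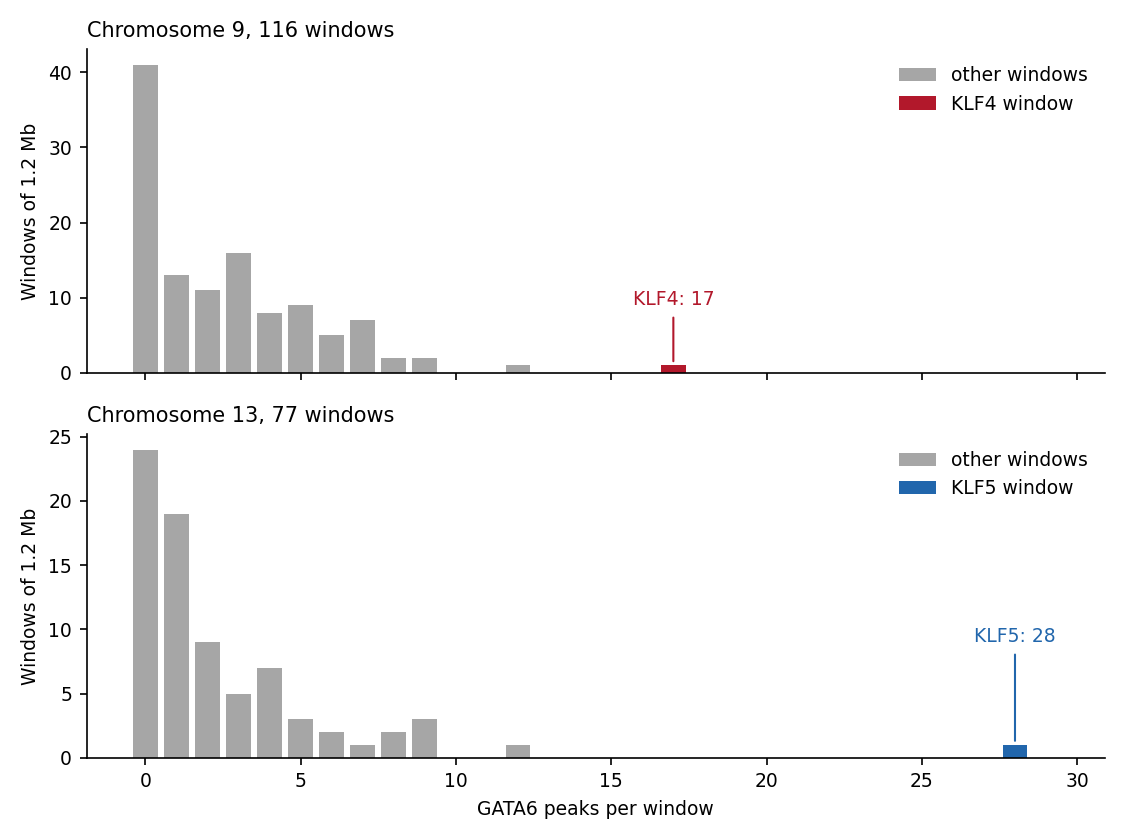
Number of 1.2 Mb windows (vertical axis) by how many GATA6 peaks they hold (horizontal axis), for chromosome 9 (top) and chromosome 13 (bottom). Grey bars are the other windows and the coloured bars are the KLF4 window, at 17 peaks, and the KLF5 window, at 28; the other windows of either chromosome reach 12 at most.

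The local background at these peaks was raised as well. It is the height of a peak divided by its deposited fold enrichment, in fragments. It lay above the median of the list (1.05, with a tolerance of 0.5%) in 13 of 17 peaks of the KLF4 window and in 25 of 28 of the KLF5 window, against 43.5% of all peaks. At or above the upper quartile of the list, 1.99 fragments with the same tolerance, were 11 peaks in each window, or 64.7% for KLF4 and 39.3% for KLF5, against 26.3% of all peaks. The mean background was 1.94 fragments in the KLF4 window and 1.71 in the KLF5 window. Of the 26 other windows of chromosome 9 with at least 5 peaks, 1 had a mean as high as that of KLF4. On chromosome 13, 3 of 12 such windows had one as high as that of KLF5.

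Counted only over peaks at or below the median background, neither window led its chromosome. This cut was chosen after seeing the data and takes out most peaks of both windows, as the shares above already imply. The KLF4 window then held 4 peaks, 2.97 times the mean of the others, and 15 of 116 windows, itself included, had at least as many. The KLF5 window held 3, 2.11 times the mean, and 17 of 77 windows, itself included, had at least as many. Among the better-scoring part of the list, with a −log10 q at or above the median of 9.24, the windows still ranked 1, with 9 and 15 peaks against at most 6 and 7 elsewhere on their chromosomes. The part of the raised background in the peak numbers was not tested.

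GATA6 binding around KLF4 was upstream and distant. All 17 peaks of the window lay upstream of the KLF4 start (110.252 Mb, known to 1 kb), the nearest at 98.1 kb and the farthest at 782.4 kb, with a median of 330.2 kb. None lay within 50 kb, 2 lay within 100 kb, 6 within 250 kb and 11 within 500 kb. The window extends 848 kb upstream and only 352 kb downstream, so room differs between the sides. Within 352 kb of the start, the counts were 9 upstream and 0 downstream. The KLF4 gene and its start fell in a peak-free interval of 519 kb, from the summit at 109831046 to that at 110350064. Of the 306 distances between neighbouring summits on chromosome 9, 69 (22.5%) were at least as long. Together these made up 79.6% of the span between the chromosome's first and last summit, so a position inside such an interval is not unusual.

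The peaks nearest to KLF4 formed its one cluster. Within 12.6 kb, from 98.1 to 110.7 kb upstream, 4 summits followed each other at 0.489, 5.08 and 7.07 kb. If the pair 0.489 kb apart were counted as a single summit, fewer than 4 would be left. The highest peak of the window was in it, at chr9:110355432-110355882, with a height of 47 fragments (95% Poisson interval 34.5 to 62.5) and a fold of 15.7 over the local background. Its height ranked 218 in the whole list. These intervals cover counting error only.

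The other peaks of that cluster were lower. The nearest to the gene, chr9:110349997-110350184, reached 17 fragments, with a fold of 4.26, over the highest background of the window, 3.99 fragments. The next, chr9:110350505-110350784, with its summit 0.489 kb away, had a height of 10 and the weakest score of all 45 peaks, a −log10 q of 1.95. The fourth, at chr9:110362550-110362896, reached 18 fragments on a low background of 0.698, with the largest fold of the window, 25.78. A further peak, 123.9 kb upstream and 13.2 kb from the cluster, had a height of 12 at a fold of 17.18. The 5 peaks from 98.1 to 123.9 kb were also the most that any 100 kb of the window held.

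Farther upstream of KLF4, high and low peaks came in groups. A peak 228.0 kb upstream stood alone, 104.1 kb from the nearest of the peaks described above, with a height of 13 at a fold of 22.56. A group of 3 lay from 303.1 to 330.2 kb upstream. Its farthest member, chr9:110582074-110582408, had a height of 46 (33.7 to 61.4) at a fold of 23.05 and the best score of the window, a −log10 q of 41.24. The intervals of this peak and of the highest one overlapped, and which of them was higher cannot be said. The other members of the group were 1.57 kb apart. The farther of them, chr9:110556558-110556928, lay 304.7 kb upstream with a height of 32 (21.9 to 45.2) at a fold of 10.69, and the nearer had a height of 20.

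Beyond the longest interval inside the window, 126.6 kb, lay 8 peaks, from 456.8 to 782.4 kb upstream of KLF4. The peaks at 604.7 kb (chr9:110856530-110856832) and 666.9 kb had heights of 28 (18.6 to 40.5) and 32 (21.9 to 45.2), both at a fold of 16.04. The latter, chr9:110918726-110919270, was the widest of the window at 545 bp. The remaining 6 had heights from 11 to 15. The median height was 15 both for the 6 peaks within 250 kb and for the 11 beyond.

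**Figure D2:**
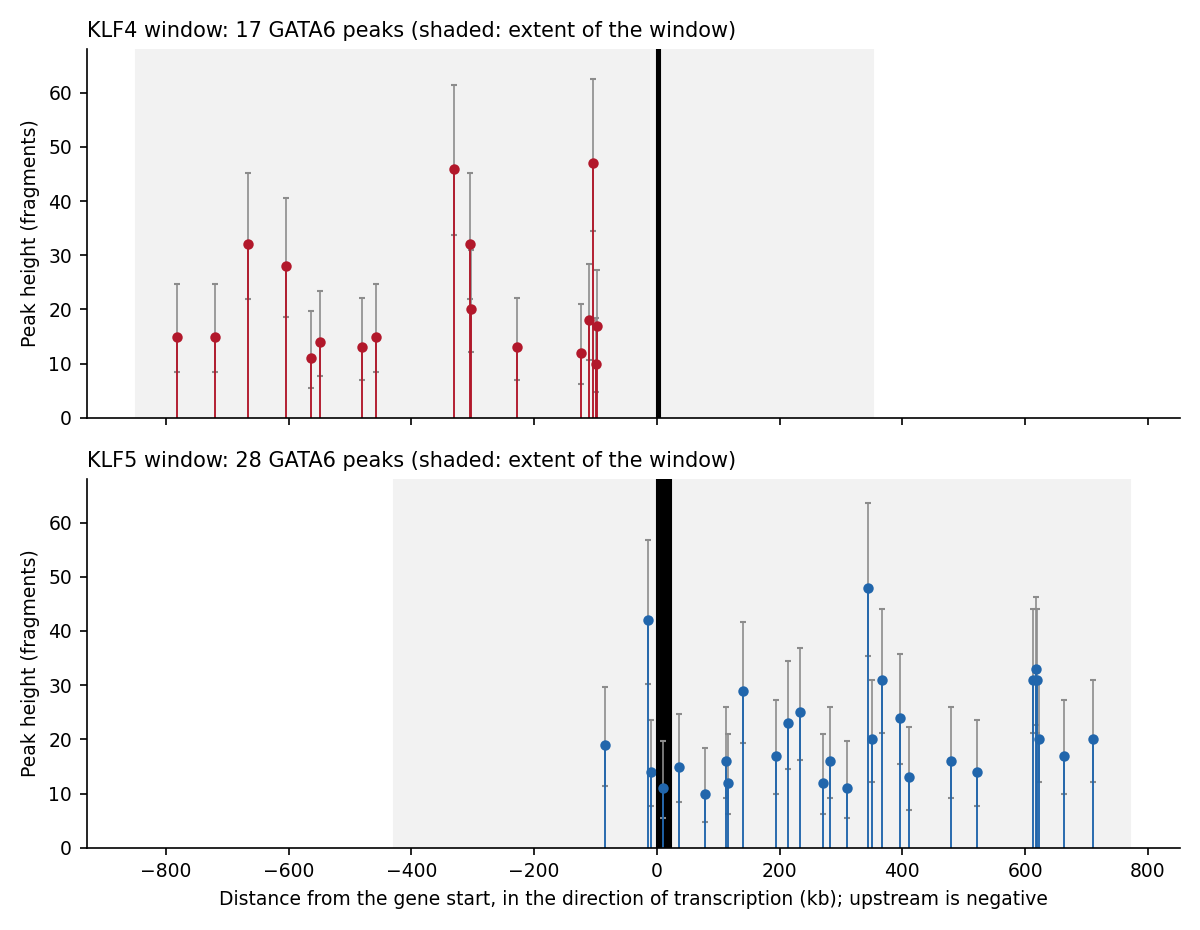
Height of each GATA6 peak in fragments (vertical axis) against its distance from the gene start in kb along the direction of transcription (horizontal axis), for KLF4 (top) and KLF5 (bottom). Points are peaks, grey bars are 95% Poisson intervals, the black block is the gene and the shaded area is the window; all KLF4 peaks lie upstream, from 98.1 to 782.4 kb, while 25 of 28 KLF5 peaks lie downstream.

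GATA6 binding around KLF5 was near the gene as well as far, and mostly downstream. Of the 28 peaks, 3 lay upstream of the KLF5 start (73.629 Mb, known to 1 kb) and 25 downstream, 1 of them inside the gene. The median distance was 296.4 kb and the largest 710.9 kb. Within 10 kb lay 1 peak, within 50 kb 4, within 100 kb 6, within 250 kb 12 and within 500 kb 21. The window has more room downstream, 771 kb against 429 kb, but within 429 kb of the start the counts were 3 upstream and 17 downstream.

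Peaks flanked the first KLF5 start on both sides within about the same distance. Upstream, the nearest lay 9.6 kb away at chr13:73619256-73619514, with a height of 14 at a fold of 7.02. Its neighbour 3.95 kb farther, chr13:73615189-73615642, had a height of 42 (30.3 to 56.8) at a fold of 21.05, the second height of the window. The third upstream peak lay 84.4 kb away, with a height of 19 at a fold of 6.35. The peak inside KLF5, chr13:73639243-73639452, lay 10.3 kb past the first start, with a height of 11 (5.49 to 19.7) at a fold of 9.55. From the later start the nearest upstream and downstream summits were 13.7 and 6.28 kb away, and the split of 3 and 25 was the same. Whether the inner peak falls in an exon or an intron was not determined, since no hg19 annotation was used here.

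Past the end of KLF5, peaks followed each other to the edge of the window. From 35.6 to 139.6 kb downstream lay 5 peaks with heights of 15, 10, 16, 12 and 29. The last of these, of height 29 (19.4 to 41.6), stood on the highest background of the window, 3.99 fragments, and so had a fold of only 7.27. The peaks at 194.3, 214.1 and 233.2 kb had heights of 17, 23 and 25. Those at 271.5, 282.2 and 310.6 kb were lower, at 12, 16 and 11.

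The highest peak of the KLF5 window lay 344.6 kb downstream of the start, at chr13:73973418-73973877. Its height was 48 fragments (35.4 to 63.6), which ranked 203 in the whole list, and its fold of 43.64 and −log10 q of 55.91 were the largest among all 45 peaks. At 5.35 kb from it lay a peak of height 20, and at 366.8 kb from the start one of height 31 (21.1 to 44.0), chr13:73995577-73995983. The next 4, from 396.7 to 522.3 kb downstream, had heights of 24, 13, 16 and 14. The median height was 16.5 fragments for the 12 KLF5 peaks within 250 kb of the start and 20 for the 16 beyond, and 5 of the 6 peaks of at least 31 fragments lay beyond.

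A compact group of strong KLF5 peaks stood 613.1 to 622.2 kb downstream. It comprised 4 summits at distances of 4.83, 1.41 and 2.82 kb. The peaks were, in order, chr13:74241954-74242253, chr13:74246760-74247099, chr13:74248197-74248509 and chr13:74250737-74251332. Their heights were 31 (21.1 to 44.0), 33 (22.7 to 46.3), 31 and 20, all of these intervals overlapping. The folds were 27.74, 16.54, 21.39 and 15.91, and the last member was the widest of all 45 peaks at 596 bp. This group and the group nearest to KLF4 are among the 35 clusters of at least 4 linked peaks in the list, in which 1.98% of all peaks lie. Such clusters held 4 of 17 KLF4 peaks and 4 of 28 KLF5 peaks, a single cluster in each window. They held 16 of the 307 peaks of chromosome 9, and 4 of the 202 of chromosome 13, those of the KLF5 window. Clusters depend on how densely peaks lie, so this is not a separate result. The KLF4 cluster reaches 4 only with summits 0.489 kb apart counted separately. The final peaks, 662.9 and 710.9 kb from the start, had heights of 17 and 20.

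The KLF5 peaks lay between wide peak-free intervals. Between the outermost summits, 73544597 and 74339856, they spanned 795.3 kb. The next peak below lay 1.13 Mb away and the next above 1.62 Mb away. These intervals ranked 31 and 15 in length among 201 on chromosome 13, so intervals as long were found elsewhere on it as well. These outer peaks, 783.6 kb below and 1560 kb above the window, had heights of 23 and 16. The KLF4 peaks spanned 684.3 kb. Above them the next peak, of height 11, followed after 105.4 kb, only 39.9 kb past the window's edge, and below KLF4 a peak of height 34 lay 68.95 kb outside the window and 421 kb downstream of the gene start. The KLF4 window's edges therefore cut a less sharply bounded stretch than those of KLF5.

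Gene order in RefSeq gave the coding neighbours. KLF4 lies between RAD23B, whose product acts in nucleotide excision repair, and ACTL7B, which codes for an actin-like protein of testis. KLF5 lies between PIBF1 and KLF12, another Krüppel-like factor. Between KLF4 and ACTL7B, on the side where the peaks lay, there were 24 annotated genes, 11 long non-coding RNA genes and 13 pseudogenes. Between KLF5 and KLF12, on the side where most peaks lay, there were 11. Of these, 5 were long non-coding RNA genes (LINC00393 and LINC00392 among them) and 6 pseudogenes. No coding gene can be among them, since ACTL7B and KLF12 were taken as the next coding genes. The length of these stretches, and how other genes compare, was not determined. This order is that of GRCh38.p14. Where these genes fall in hg19 relative to the peaks was not determined, so the outer KLF5 peaks may lie as near to KLF12 as to KLF5, and no peak is assigned to a gene.

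Peaks in both windows were closer together than on the rest of their chromosomes. Neighbouring summits had a median distance of 33.1 kb over 16 distances in the KLF4 window, with a range of 0.489 to 126.6 kb. In the KLF5 window it was 25.3 kb over 27 distances, with a range of 1.41 to 90.8 kb. The medians over all other distances were 138.3 kb on chromosome 9 and 136.9 kb on chromosome 13. This follows from the number of peaks in the windows and is not a separate result.

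The closest pairs were no more than moderately frequent. Of the peaks, 6 of 17 in the KLF4 window and 10 of 28 in the KLF5 window had a neighbour within 10 kb, or 35.3% and 35.7%, against 27.2% of all peaks. The shares on the whole of chromosomes 9 and 13 were 30.9% and 30.7%. Spacing differed between the windows at the wide end: 23 of 27 distances in the KLF5 window were at most 50 kb, against 9 of 16 in the KLF4 window, where 2 exceeded 100 kb. Elsewhere 32.4% of the distances on chromosome 9 and 28.7% on chromosome 13 were at most 50 kb. With summits linked within 10 kb, 22 separate stretches of binding were left in the KLF5 window and 13 in the KLF4 window.

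**Figure D3:**
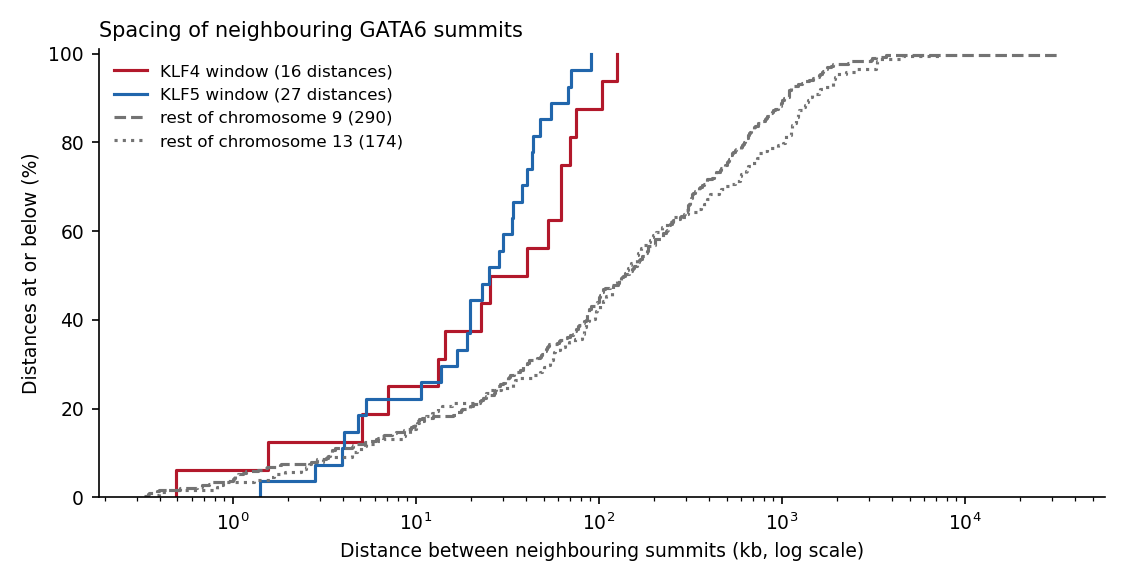
Share of distances between neighbouring GATA6 summits (vertical axis, percent) at or below each distance (horizontal axis, kb, log scale). Solid lines are the KLF4 window (16 distances) and the KLF5 window (27), and grey lines are the other distances on chromosome 9 (dashed) and 13 (dotted); the windows lie to the left, with medians of 33.1 and 25.3 kb against 138.3 and 136.9 kb.

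In height, the peaks of both windows were ordinary members of the list. The heights of the KLF4 window ran from 10 to 47 fragments with a median of 15, and those of the KLF5 window from 10 to 48 with a median of 18. The median of the whole list was 16, as were those of chromosomes 9 and 13. The order-statistic 95% intervals of the window medians, 13 to 28 and 15 to 24, overlapped each other and included 16. Such intervals treat the peaks of a window as independent draws, so they are a description and no test. At or above the upper quartile of the list, 23 fragments, were 5 of 17 KLF4 peaks and 10 of 28 KLF5 peaks (29.4% and 35.7%), against 25.1% of all peaks. A score at or above the median −log10 q was reached by 52.9% and 53.6%, against 50% of all peaks. Among the other windows with at least 5 peaks, 17 of 26 on chromosome 9 had a median height at or above that of KLF4, and 3 of 12 on chromosome 13 one at or above that of KLF5.

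The median fold was 10.69 (7.52 to 16.04) in the KLF4 window and 11.71 (9.55 to 15.54) in the KLF5 window, against 14.03 over all peaks. Both intervals included 14.03, which is again a description and no test. Since the fold is the height over the local background, the raised background enters it by construction. Against peaks of the list at a like background, within 0.25 fragments, the median ratio of heights was 1.00 in the KLF4 window and 1.03 in the KLF5 window.

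Widths ran from 177 to 545 bp with a median of 290 bp in the KLF4 window, and from 175 to 596 bp with a median of 265 bp in the KLF5 window, against a median of 251 bp in the list. Of the KLF4 peaks, 6 (35.3%) were at or above the upper quartile of 320 bp, and of the KLF5 peaks 7 (25%), against 25.1% of all peaks. Higher peaks tended to be wider. The 5 highest KLF4 peaks measured 303 to 545 bp, and the 6 KLF5 peaks of at least 31 fragments measured 300 to 460 bp. The medians of the others were 261 and 247 bp. Their widest peaks measured 347 and 596 bp, so the widest KLF5 peak was not among the highest.

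**Figure D4:**
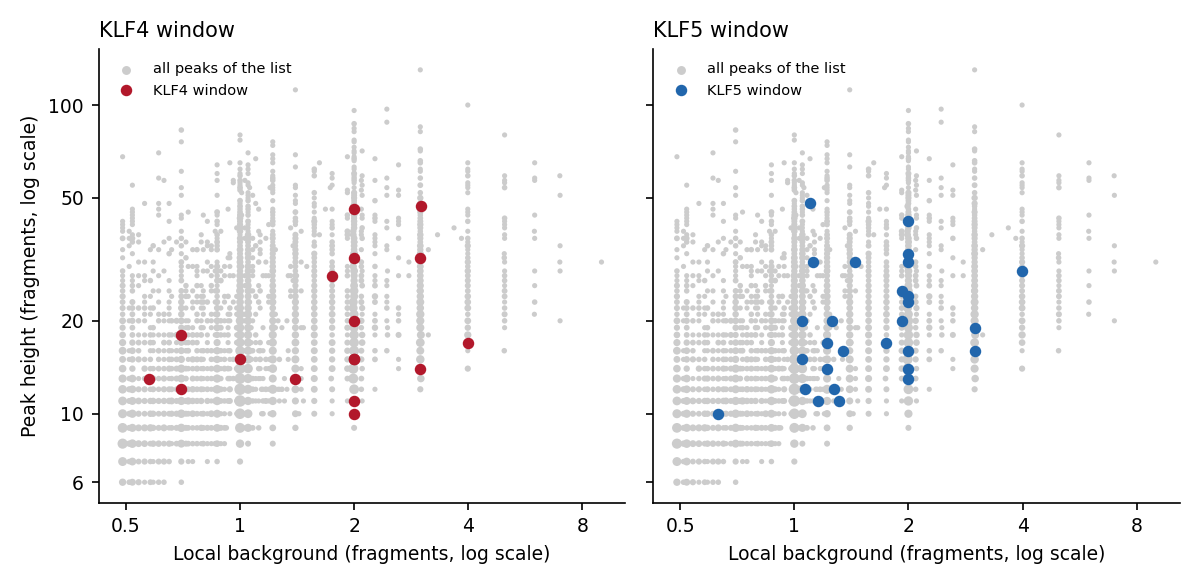
Height (vertical axis, fragments, log scale) against local background (horizontal axis, fragments, log scale) of GATA6 peaks. Grey points are all peaks of chromosomes 1 to 22 and X, larger where peaks coincide, and coloured points are the KLF4 window (left) and the KLF5 window (right); the windows' peaks sit mostly right of the list's median background of 1.05 and at usual heights for their background.

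Side by side, the KLF4 and KLF5 windows shared a peak density well above their chromosomes, ordinary heights, a raised local background, and peaks mainly on a single side of the gene. They differed in the approach to the gene. The nearest summit lay 98.1 kb from the KLF4 start, and 9.6 kb from the first KLF5 start or 6.28 kb from the later one. Within 100 kb, KLF5 had 6 peaks, counted from its first start, and KLF4 had 2. The highest peaks were of like size, 47 (34.5 to 62.5) and 48 (35.4 to 63.6) fragments. With 1 list and no value per library, none of these differences can be set against a spread between replicates.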

How the data were processed

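GATA6 ChIP-seq of LS174T cells was analysed from the peak list that the authors deposited. Per the submitters' processing notes, CASAVA 1.8 and BWA 0.5.9-r16 were used on hg19. The name of the peak caller, its control and thresholds, and whether libraries were pooled, were not given in the sources used here. Per the file headers, the deposited height is a pileup signal in fragments, the deposited fold enrichment is a linear ratio over a local background, and the deposited p- and q-values are on a −log10 scale. A higher background lowers the fold and raises the height needed for a given p, so it can change which peaks are listed.

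The window bounds and gene starts are those of the rule for choosing peaks. Windows, distances, spacing and local background (height over fold) were computed with Python 3.11.15, pandas 2.3.3 and numpy 2.4.6. Heights carry exact 95% Poisson intervals (scipy 1.17.1), and medians carry order-statistic intervals. Window counting was tested on simulated data. Peaks were linked within 10 kb. No test was made, since the windows, the motifs and the gene lists were chosen with earlier results of these data known. Every peak of both windows is accounted for. The highest 5 with ties, the nearest to each start, those inside a gene and the longest linked run are given by position. Motifs under summits and peaks near the other KLF and SP genes were not analysed, because hg19 sequence and annotation were not used here. Promoters and gene order are from RefSeq GRCh38.p14, and no coordinate was converted. The motif search in promoters was added after the list had been seen. Other window placements, widths, scores, linking distances and gene starts were tried as alternatives.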

Additional observations from a re-analysis of the deposited data

How the results depend on the processing

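Over 14 results, 47 of 60 alternative values stayed within 1.5 times (ratios and counts) or within the main value's 95% interval, and 13 did not. Several of these alternatives could hardly move a result. A start moved by 1 kb, or a peak midpoint, is a small change beside median distances of 330.2 kb (KLF4) and 296.4 kb (KLF5). No neighbouring KLF5 summits lay within 1 kb to be joined. The shares rest on a single window, so their intervals are wide. The tally is therefore no measure of robustness. Both windows ranked 1 on their own chromosome under each placement, width, score and joining alternative. They lost that rank when peaks above the median background, which were most peaks of both windows, were left out. Without windows that hold no peak, the KLF4 ratio to the mean of the others was 4.41. Windows of 2.4 Mb gave KLF5 a ratio of 6.2, by construction, since the added 1.2 Mb held 0 peaks. Windows slid by 0.1 Mb gave shares with at least as many peaks of 0.0734% (KLF4) and 0.111% (KLF5), and windows of chromosomes 1 to 22 gave KLF5 0.0439%, because more windows were counted. Without peaks above the median background, the ratios were 2.97 (KLF4) and 2.11 (KLF5) and the shares 12.9% and 22.1%; the cause was not tested. In fold in place of height, the medians relative to the list were 0.762 (KLF4) and 0.835 (KLF5), since the fold is divided by the background. A linking distance of 5 kb left 2 linked KLF4 neighbours in place of 4, and 20 kb gave 12 for KLF5 in place of 6. The low-background, like-background and later-start alternatives were chosen after seeing the data. Leaving out a library was not run, because the list has no value per library, nor was a start from an hg19 annotation. Depth is unknown, and single heights are limited by counting error.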
